A study of Mus musculus with 19 samples.

Results

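The comparison described here set dorsal root ganglia of mice with surgical knee osteoarthritis against ganglia of naive mice when both had received AP20187. It used 9 of the 19 RNA sequencing libraries of the series, chosen by their labels: 5 of the group DMM AP20187, numbered 58 to 62, and 4 of the group naive AP20187, numbered 1, 3, 4 and 5. All were male mice homozygous for the MaFIA transgene (macrophage Fas-induced apoptosis), so every group, controls included, carried it. DMM mice had destabilization of the medial meniscus and were sampled 8 weeks after it. Naive mice were age-matched and had no surgery, so surgery and joint damage were not separated by a sham group. Both groups received AP20187 intraperitoneally each day on 5 days, and 10 further libraries, of 5 DMM and 5 naive mice given vehicle, served as reference. Each library held the pooled L3 to L5 ganglia of the operated side, or of naive mice.

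Dorsal root ganglia hold the cell bodies of sensory neurons, wrapped by satellite glia and served by Schwann cells, blood vessels, a connective tissue sheath and resident macrophages. In MaFIA mice a dimerizable Fas construct under the Csf1r promoter lets AP20187 trigger apoptosis in macrophages and other cells of the myeloid lineage. Damage to the medial meniscus leads to slow cartilage loss and pain, and the ganglia at these levels innervate the knee. The question of the comparison is which ganglion transcripts differ with osteoarthritis in animals given a drug meant to remove macrophages. The summed macrophage markers were not lower with it in these libraries: the 18 markers reached 981.8 to 2393 CPM in DMM AP20187 and 900.3 to 1755 CPM in naive AP20187, against 280.9 to 1163 CPM in DMM vehicle and 186.2 to 761.2 CPM in naive vehicle. A sum follows its most abundant members, so it does not show that each macrophage gene, such as Csf1r, was not lower. The 13 mature neutrophil markers summed to 17100 to 29320 CPM (DMM) and 8263 to 28320 CPM (naive) under AP20187. Under vehicle they summed to 452.9 to 8712 CPM (DMM) and 961.8 to 2576 CPM (naive). CPM are counts scaled to a common library size after TMM, and the treatment difference was not tested here.

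Libraries held 61553995 to 66561646 counts in DMM AP20187 and 60984830 to 64597387 in naive AP20187. Values are CPM, log2 fold changes are DMM minus naive, and a gene passed when edgeR's quasi-likelihood test gave an adjusted p (Benjamini-Hochberg, all tested genes) under 0.05. Within groups, library pairs correlated at 0.92 to 0.963 over log2 CPM, and between groups at 0.9 to 0.953. Naive AP20187 1, 3 and 4 stood apart in the deposited tables. In them the FPKM listed per CPM was 0.901, 0.903 and 0.922 of the median library, against 0.994 to 1.006 in the other 16. Results below are therefore also read against naive AP20187 5, and the closing section gives the counts without those 3. The labels give no sequencing batch, and any batch that follows the groups cannot be told apart from them. The labels number the samples and say nothing more of their origin, so p-values measure the spread between these libraries, which may be technical. Nociceptor and pan-neuronal markers were present in all 9 libraries, with the 14 pan-neuronal markers summing to 2294 to 9068 CPM in DMM and 3042 to 15070 CPM in naive libraries.

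Of 22778 genes tested, 160 differed between DMM and naive ganglia under AP20187, which is 0.702% of those tested. There were 60 higher in DMM (0.263%) and 100 lower (0.439%), and 113 of the 160 differed at least 2-fold, 39 higher and 74 lower. Among lower genes were 14 of the skeletal muscle list, and among higher genes 6 of the central neuron list that were low or at 0 counts in the naive AP20187 libraries. For comparison, DMM against naive under vehicle gave 0 genes (0%) by edgeR, 377 at an unadjusted p under 0.05, and 0 by DESeq2. The difference between the 2 contrasts, tested as an interaction, passed for 26 genes (0.114%), 11 positive and 15 negative, all among the 160. That count was 224 with DESeq2, 13 without a count filter, 53 with voom, 53 on FPKM, 0 without naive AP20187 1, 3 and 4 together and 12 to 57 when any 1 library was left out, lowest without DMM AP20187 60 and highest without naive AP20187 5. The count of 160 depended on most of the single libraries: it was 64, 43, 53, 269 and 64 without DMM AP20187 58, 59, 60, 61 and 62, and 63, 151, 84 and 143 without naive AP20187 1, 3, 4 and 5. Without naive vehicle 1, 80 of the 160 genes were still called. The share higher, 37.5%, was 58.97% without TMM, 56.63% with DESeq2, 82.7% on FPKM and 13.51% in a fit of the 9 libraries alone, so the balance of directions is not settled by these data.

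**Figure D1:**
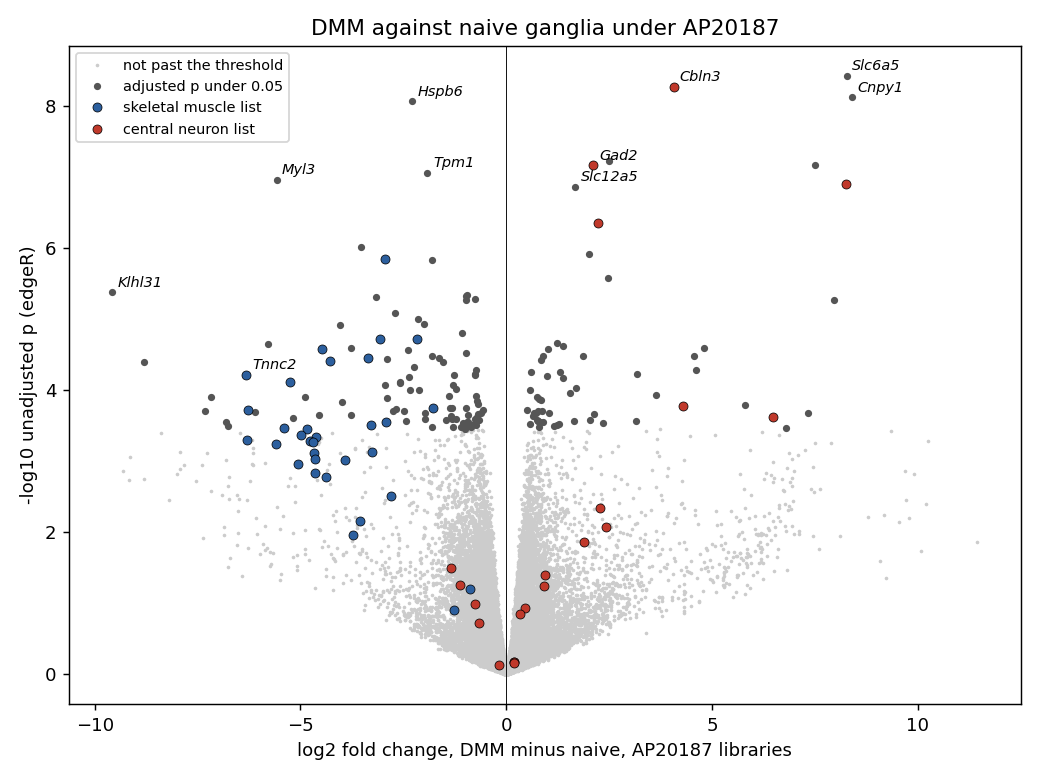
Each point is 1 of 22778 genes, with log2 fold change (DMM minus naive, AP20187 libraries) on the x axis and -log10 of the unadjusted edgeR p on the y axis. Blue points are the skeletal muscle list, all left of 0, and red points the central neuron list, of which the 6 that passed lie right of 0.

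Sequence upstream of the transcription start is shown for 5 genes that carry the contrast: 3 muscle genes that were lower in DMM and 2 neuronal genes that were higher. Pvalb and Ttn are the muscle list members past the threshold whose window holds a match to the MEF2 site, the binding motif of the myocyte enhancer factors, and Tnnc1 has the smallest p of that list. Pvalb has 2 starts in the table, and the window with the match is shown. Each line gives 250 bases before the start, 5′ to 3′ in the direction of the gene, from RefSeq on GRCm38.p6, an older build than that of the counts. Capitals mark MEF2 site matches and the E-box CANNTG, the motif of basic helix-loop-helix factors, of which MyoD in muscle and NeuroD in neurons are members.
Pvalb, chr15:78206401-78206650, minus strand: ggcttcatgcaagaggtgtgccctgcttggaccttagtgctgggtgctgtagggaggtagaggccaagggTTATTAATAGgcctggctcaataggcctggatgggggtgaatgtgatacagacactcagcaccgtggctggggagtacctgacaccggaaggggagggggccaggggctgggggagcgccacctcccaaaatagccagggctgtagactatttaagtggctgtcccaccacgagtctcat
Ttn, chr2:76982548-76982797, minus strand: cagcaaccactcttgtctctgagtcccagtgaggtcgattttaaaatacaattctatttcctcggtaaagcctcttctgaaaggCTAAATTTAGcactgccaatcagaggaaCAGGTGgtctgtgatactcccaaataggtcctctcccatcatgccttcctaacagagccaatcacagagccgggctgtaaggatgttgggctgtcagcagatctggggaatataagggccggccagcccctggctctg
Tnnc1, chr14:31208062-31208311, plus strand: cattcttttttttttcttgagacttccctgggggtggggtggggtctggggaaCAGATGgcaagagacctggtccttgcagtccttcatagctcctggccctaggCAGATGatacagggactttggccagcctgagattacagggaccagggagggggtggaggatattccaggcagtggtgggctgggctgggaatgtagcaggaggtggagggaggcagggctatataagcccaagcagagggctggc
Gad2, chr2:22622077-22622326, plus strand: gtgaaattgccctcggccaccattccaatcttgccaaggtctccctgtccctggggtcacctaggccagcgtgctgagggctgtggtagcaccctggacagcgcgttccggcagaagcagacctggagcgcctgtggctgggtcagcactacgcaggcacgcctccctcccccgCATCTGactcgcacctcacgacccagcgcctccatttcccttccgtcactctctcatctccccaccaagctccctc
Cbln3, chr14:55884257-55884506, minus strand: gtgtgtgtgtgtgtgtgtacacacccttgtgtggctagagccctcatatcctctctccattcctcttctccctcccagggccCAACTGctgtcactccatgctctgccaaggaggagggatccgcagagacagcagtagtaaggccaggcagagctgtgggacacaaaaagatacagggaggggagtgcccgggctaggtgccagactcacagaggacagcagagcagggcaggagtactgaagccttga
In these windows Tnnc1 holds 2 E-boxes, Ttn, Gad2 and Cbln3 hold 1 each, and Pvalb holds 0. Both strands were searched, and the MEF2 and E-box matches do not overlap here. The MEF2 site was found for 6 of the 26 muscle list genes with a promoter in the table (23.1%), for 0 of 13 central neuron list genes and for 3.42% of the 27025 genes of the table. The E-box was found for 23 of 26 muscle genes (88.5%), 12 of 13 central neuron genes (92.3%) and 69.3% of all genes. The CArG box, the serum response factor motif, was found for 2 of 26 muscle genes and 1.62% of all. These matches describe the letters of the windows and were not tied to the measured differences.

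Skeletal muscle transcripts were lower in DMM ganglia. Of the 32 tested members of the muscle list, 14 passed as lower and 0 as higher, against 0.439% of all genes called lower, and all 32 had a log2 fold change below 0. The median was -4.42 (range -6.31 to -0.89), against -0.01 over all genes tested, and 31 of the 32 did not overlap between groups, against 2.44% of all genes that were lower without overlap. The list was chosen with earlier results of these data known, so these shares are description and not a test. Summed over the list, the level was 122.8, 152.2, 151.3, 200.5 and 322 CPM in DMM AP20187 58 to 62 and 4545, 3955, 2938 and 3852 CPM in naive AP20187 1, 3, 4 and 5. Every naive AP20187 library was high, naive AP20187 5 included. In the vehicle libraries the same sum ran from 90.17 to 3368 CPM in DMM and from 89.54 to 831.9 CPM in naive mice. Skeletal muscle is not a ganglion cell type, and in pooled tissue the number of cells of a type and the RNA per cell cannot be told apart. Whether muscle beside the ganglia entered the samples was not tested.

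Tnnc2, Tnnc1 and Tpm1, genes of the thin filament, passed as lower, while Tnnt1, Tnni1, Acta1 and Tnnt3 of the list did not pass, with log2 fold changes of -0.89, -1.28, -4.66 and -4.99. Tnnc2 (ENSMUSG00000017300, chromosome 2, 164619081 to 164621887 on GRCm39) encodes fast skeletal troponin C, which binds the calcium that starts contraction. Tnnc2 was at 1.2, 1.17, 0.962, 2.1 and 2.9 CPM in DMM AP20187 58 to 62 and at 155, 153, 95.1 and 126 CPM in naive AP20187 1, 3, 4 and 5. The groups were far apart and did not overlap (log2 fold change -6.31, SE 1.23, adjusted p 0.0232). The vehicle libraries spanned 0.484 to 92.8 CPM, with DMM vehicle 32 the highest, so the DMM AP20187 libraries lay within their range and the naive AP20187 libraries above its top. Tnnc1, the troponin C of slow and cardiac muscle, followed at lower abundance. Tnnc1 was at 0.424, 0.38, 0.778, 0.854 and 0.238 CPM in DMM AP20187 58 to 62 and at 4.74, 4.8, 3.58 and 3.53 CPM in naive AP20187 1, 3, 4 and 5. It also did not overlap (log2 fold change -2.95, SE 0.43, adjusted p 0.00213), and here the vehicle libraries, at 0.318 to 1.31 CPM, all lay below every naive AP20187 library. Tpm1 encodes alpha-tropomyosin, which is made in muscle and in many other cells. Tpm1 was at 164, 164, 147, 193 and 164 CPM in DMM AP20187 58 to 62 and at 663, 662, 535 and 652 CPM in naive AP20187 1, 3, 4 and 5. The naive libraries were each higher than all DMM libraries (log2 fold change -1.92, SE 0.23, adjusted p 0.000246), and the 5 DMM libraries also lay below the vehicle libraries, which were at 217 to 581 CPM.

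Ttn, Myl3, Myl1, Actn2 and Actn3 were also lower, while Mylpf, Mybpc1, Mybpc2 and Xirp2 of the list did not pass, with log2 fold changes of -4.63, -3.72, -4.68 and -4.65. Ttn, the giant spring protein of the sarcomere, was at 1.49 to 7.44 against 87 to 132 CPM (log2 fold change -5.27, SE 1.04, adjusted p 0.0267). Myl3 was at 0.182, 0.175, 0.153, 0.0449 and 0 CPM in DMM AP20187 58 to 62 and at 8.54, 4.04, 4.61 and 4.54 CPM in naive AP20187 1, 3, 4 and 5. Myl3 encodes a ventricular and slow muscle myosin light chain, and naive AP20187 1 was its highest library (log2 fold change -5.58, SE 0.67, adjusted p 0.000277). Myl1, the fast light chain, was at 0.242 to 4.14 against 111 to 144 CPM (log2 fold change -6.28, SE 1.36, adjusted p 0.0441). Actn2 and Actn3, the alpha-actinins of the Z disc, were at 0.839 to 3.45 against 10.3 to 15.8 CPM and 2.08 to 9.32 against 119 to 188 CPM. None of these overlapped between the groups.

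Ryr1 of the muscle list and Cacna1s, Hrc, Klhl31 and Vgll2, which are in none of the lists, fell as well. Ryr1, the calcium release channel of the sarcoplasmic reticulum, was at 2.23 to 4.33 against 22.2 to 35.4 CPM, and its log2 fold change was -3.35 (SE 0.62, edgeR adjusted p 0.0175). Cacna1s, the voltage sensor coupled to it, was at 0.26 to 0.629 against 9.18 to 16.8 CPM (edgeR adjusted p 0.0352). Hrc, the histidine-rich calcium-binding protein of the same store, was at 0 to 0.504 against 10.4 to 17.1 CPM (edgeR adjusted p 0.0154). Klhl31, a muscle Kelch protein, had the largest decrease among genes with a mean of at least 1 CPM. Klhl31 was at 0, 0, 0.0611, 0 and 0 CPM in DMM AP20187 58 to 62 and at 13.7, 9.8, 8.05 and 11.6 CPM in naive AP20187 1, 3, 4 and 5. It had 0 counts in 4 of the 5 DMM libraries. Vgll2, a muscle cofactor, had 0 counts in the 5 DMM libraries and 204 in the 4 naive ones, at least 18.6-fold lower in DMM against a floor of 3 counts per library.

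Hspb6 and Pvalb are also made outside muscle. Hspb6 (ENSMUSG00000036854, chromosome 7, 30251603 to 30254865) encodes a small heat shock protein of muscle. Hspb6 was at 3.68, 2.94, 2.73, 2.65 and 4.2 CPM in DMM AP20187 58 to 62 and at 16.8, 15.3, 11.9 and 18.9 CPM in naive AP20187 1, 3, 4 and 5. All DMM libraries were below and all naive libraries above the vehicle libraries, which lay at 5.39 to 11.4 CPM. Its log2 fold change was -2.28 (SE 0.23, 95% CI -2.77 to -1.79, edgeR adjusted p 4.9e-05), and it passed under each of the 16 alternatives tabulated for it, which do not include leaving out vehicle libraries. Pvalb encodes parvalbumin, a calcium buffer of fast muscle fibres and of proprioceptive neurons, and belongs to both lists. Pvalb was at 53.4, 53.3, 63.7, 38.9 and 42.1 CPM in DMM AP20187 58 to 62 and at 248, 284, 164 and 213 CPM in naive AP20187 1, 3, 4 and 5. The groups did not overlap (log2 fold change -2.18, SE 0.38, adjusted p 0.0142), while the vehicle libraries spread over 26.8 to 174 CPM. It was the 1 of 12 tested members of the proprioceptor list to pass, against 0.439% of all genes called lower, and that list had a median of -0.87.

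**Figure D2:**
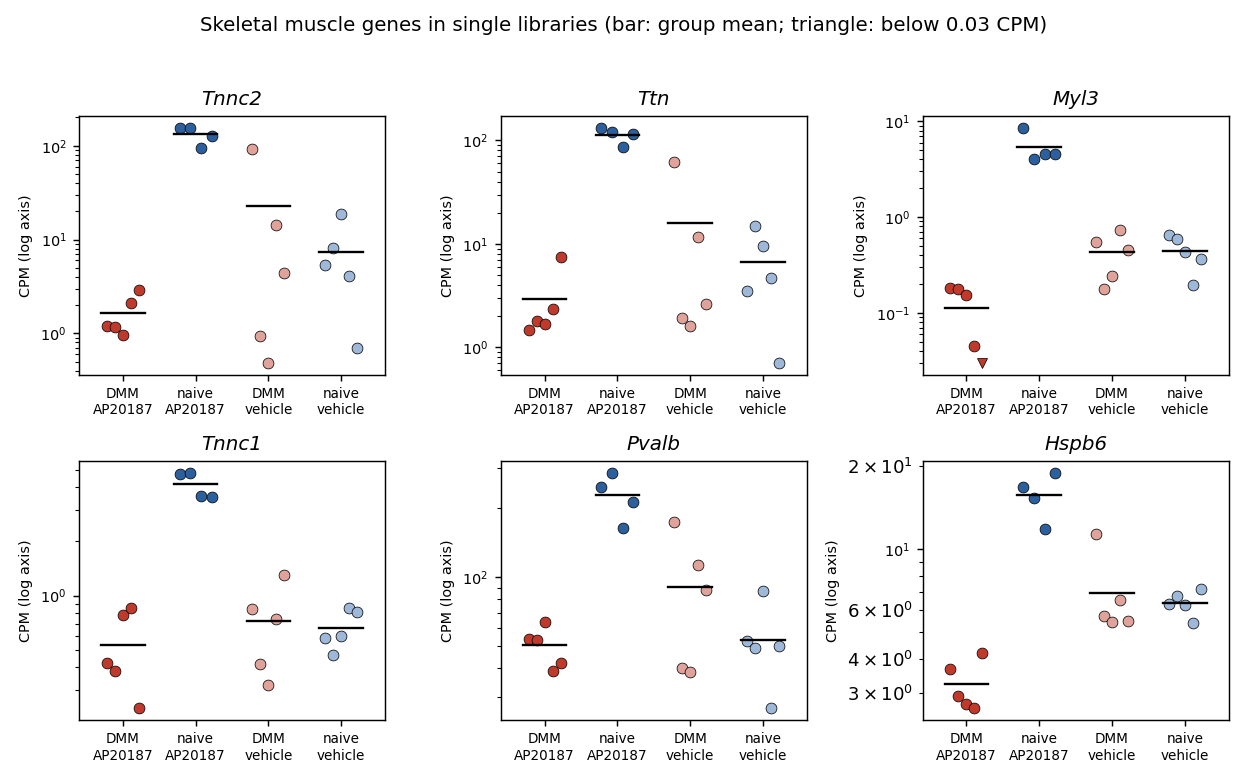
CPM on a log axis for 6 muscle genes in each of the 19 libraries, grouped by surgery and treatment, with a bar at the group mean and a triangle for a value below 0.03 CPM. The 4 naive AP20187 points lie above all DMM AP20187 points in each panel, and for Tnnc2 and Ttn 1 DMM vehicle library lies near them.

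The number of muscle calls depended on the libraries in the model. The 14 became 4, 2, 3, 8 and 6 without DMM AP20187 58, 59, 60, 61 and 62, and 7, 9, 8 and 9 without naive AP20187 1, 3, 4 and 5. By other methods 26 passed in the fit of the 9 libraries alone, 27 with DESeq2, 30 with voom, 30 on FPKM and 8 without a count filter. In the same order, all genes called lower were 96 of 20738, 481 of 22752, 1688 of 22778, 215 of 21496 and 47 of 36682. Without DMM vehicle 32, the vehicle library with high muscle genes, 28 of the 32 passed, and without DMM vehicle 63, naive vehicle 1 and naive vehicle 2 there were 9, 9 and 8. Of 16 alternatives, the call was lost under 11 for Actn3, 9 for Myl1, 8 for Cacna1s and 5 for Tnnc2 and Ttn. The edgeR interaction test passed for 3 of the 32 members, against 0.114% of all genes. They were Tnnc1 at -3.08 (adjusted p 0.0351), Pvalb at -2.94 (adjusted p 0.0348) and Actn2 at -3.83 (adjusted p 0.0458). Under vehicle the list's median log2 fold change was 1.14 with 0 members called.

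Part of the genes of inhibitory and cerebellar neurons were higher in DMM ganglia. Of 21 tested members of the central neuron list, 6 passed as higher and 0 as lower, against 0.263% of all genes, with a list median of 0.92 and 7 members higher without overlap, against 3.46% of all genes. This list too was chosen with earlier results of these data known, so its shares are description only. The 6 called members were each below 10 CPM in all 19 libraries, while other members, among them Camk2a and Slc17a7, were more abundant and did not pass. The summed level of the list was 214.3 to 320.1 CPM in DMM and 223.6 to 442.4 CPM in naive AP20187 libraries and so overlapped. The change lay in particular members. Between 4 and 6 members passed when any 1 library was left out, 3 on FPKM, 9 with DESeq2 and 0 without naive AP20187 1, 3 and 4 together.

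Gad1, Gad2, Slc32a1 and Slc6a5 take part in making, loading or taking up inhibitory transmitter, and the last 2 are in none of the lists. Gad1 (ENSMUSG00000070880, chromosome 2, 70392386 to 70432358) and Gad2 (ENSMUSG00000026787, chromosome 2, 22512217 to 22583886) encode the 2 glutamate decarboxylases that form GABA. Gad1 was at 6.3, 7.58, 6.64, 5.98 and 6.06 CPM in DMM AP20187 58 to 62 and at 0.623, 1.08, 1.41 and 2.45 CPM in naive AP20187 1, 3, 4 and 5. Gad2 was at 2.79, 2.72, 3.85, 3.19 and 3.33 CPM in DMM AP20187 58 to 62 and at 0.519, 0.591, 0.756 and 1.05 CPM in naive AP20187 1, 3, 4 and 5. Both genes were higher in all DMM libraries than in any naive one (log2 fold change 2.22, SE 0.29, adjusted p 0.000837 for Gad1, and log2 fold change 2.12, SE 0.25, adjusted p 0.000223 for Gad2). The vehicle libraries of both surgery groups lay at 4.82 to 8.84 CPM for Gad1 and 2.35 to 3.81 CPM for Gad2, so it was the naive AP20187 libraries that stood apart from the other 15. Slc32a1 encodes the transporter that loads GABA and glycine into vesicles. Slc32a1 was at 2.8, 1.83, 1.56, 2.37 and 3.26 CPM in DMM AP20187 58 to 62 and at 0.744, 0.524, 0.689 and 0.389 CPM in naive AP20187 1, 3, 4 and 5. It did not overlap either (log2 fold change 2.01, SE 0.29, adjusted p 0.00194), with vehicle libraries at 1.55 to 2.6 CPM. Slc6a5, the neuronal glycine transporter, had 191 counts in the 5 DMM libraries and 0 in the 4 naive AP20187 libraries. Slc6a5 was at 0.743, 0.395, 0.702, 0.464 and 0.645 CPM in DMM AP20187 58 to 62 and at 0, 0, 0 and 0 CPM in naive AP20187 1, 3, 4 and 5. It was at least 11.7-fold higher in DMM (edgeR adjusted p 4.9e-05), and vehicle libraries were at 0.358 to 1.01 CPM.

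Some genes of cerebellar granule and Purkinje cells were higher too, while Cbln1, Zic1, Neurod1, Pcp2, Calb1 and Grm4 of the same list did not pass, with log2 fold changes of 0.20, 0.19, 0.92, 2.43, -0.66 and -1.34. Cbln3 (ENSMUSG00000040380, chromosome 14, 56116370 to 56121849), a secreted cerebellin of granule cells, had the smallest p of the list. Cbln3 was at 1.29, 1.45, 2.23, 1.78 and 2.9 CPM in DMM AP20187 58 to 62 and at 0.138, 0.0676, 0.185 and 0.0648 CPM in naive AP20187 1, 3, 4 and 5. DMM and naive libraries were far apart (log2 fold change 4.06, SE 0.40, adjusted p 4.9e-05), and vehicle libraries were at 1.51 to 2.92 CPM. Gabra6, the granule cell GABA receptor subunit, had 192 counts in DMM and 0 in naive libraries, at least 11.6-fold higher. Gabra6 was at 0.242, 0.863, 0.382, 0.869 and 0.578 CPM in DMM AP20187 58 to 62 and at 0, 0, 0 and 0 CPM in naive AP20187 1, 3, 4 and 5. Every DMM library held it and no naive AP20187 library did, while vehicle libraries were at 0.318 to 1.44 CPM. Cnpy1 and Ppp1r17, a Purkinje cell phosphatase inhibitor, and En2, a midbrain and hindbrain homeobox gene, also had 0 counts in naive libraries and were at least 12.9-fold, 6.90-fold and 3.34-fold higher. Neurod2, a neuronal transcription factor, was at 0.289 to 0.424 against 0 to 0.0648 CPM (edgeR adjusted p 0.043), and its call was lost under 10 of 15 alternatives and that of En2 under 11 of 14.

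Slc12a5, Grin2b, Grin2c, Slc1a2 and Ttr were further genes higher in DMM. Slc12a5 encodes the neuronal chloride exporter KCC2. Slc12a5 was at 8.55, 6.8, 7.2, 6.83 and 10.04 CPM in DMM AP20187 58 to 62 and at 2.13, 3.53, 2.15 and 2.06 CPM in naive AP20187 1, 3, 4 and 5. The groups were separate, and naive AP20187 3 was the highest naive library (log2 fold change 1.68, SE 0.20, adjusted p 0.000284). Of the 24 tested glutamate, GABA and glycine receptors, 2 passed as higher, against 0.263% of all genes, Gabra6 and the NMDA subunit Grin2b at 1.36 to 2.86 against 0.242 to 0.941 CPM. The median of that list was -0.16, with 13 of the 24 below 0, and the call of Grin2b was lost under 11 of 15 alternatives. Grin2c, an NMDA subunit outside that list, was at 0.883 to 1.31 against 0.101 to 0.294 CPM (log2 fold change 2.46, SE 0.37, adjusted p 0.00351). Slc1a2, the astrocyte glutamate transporter, was the 1 of 12 central glia genes to pass as higher, against 0.263% of all genes. Slc1a2 was at 16.5, 21.2, 22.6, 21.1 and 20.4 CPM in DMM AP20187 58 to 62 and at 8.51, 7.13, 10.2 and 14.3 CPM in naive AP20187 1, 3, 4 and 5. Its groups did not overlap (log2 fold change 1.02, SE 0.18, adjusted p 0.0157), and the list's median was 0.65, with Gfap, Aqp4, Aldh1l1 and Mobp below 0. Ttr, the choroid plexus carrier of thyroid hormone, was at 7.61 to 8.43 against 1.47 to 4.2 CPM (edgeR adjusted p 0.0157).

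**Figure D3:**
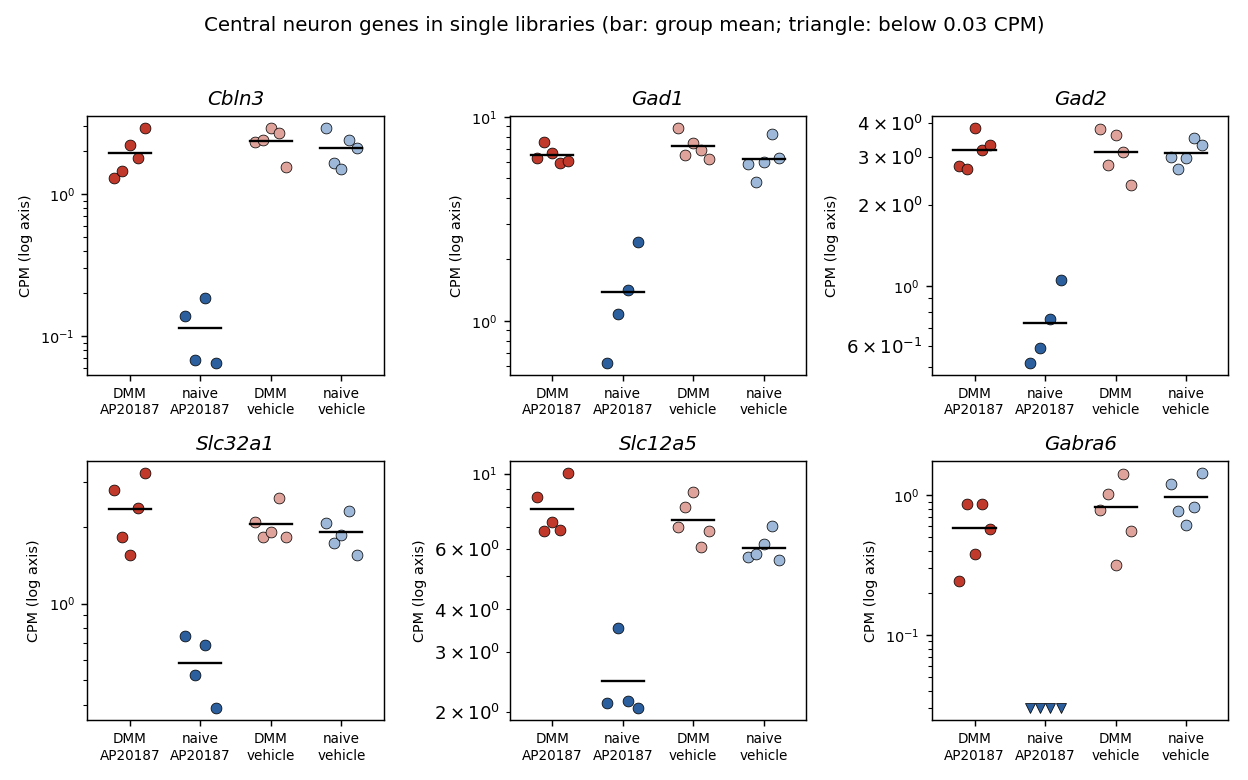
CPM on a log axis for 6 central neuron genes in each of the 19 libraries, with a bar at the group mean and a triangle for a value below 0.03 CPM. The naive AP20187 libraries are low in each panel, and the other 3 groups overlap.

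The edgeR interaction test passed for 4 of the 21 tested members of the central neuron list, against 0.114% of all genes. They were Cbln3 at 3.89 (adjusted p 0.00175), Gad1 at 2.02 (adjusted p 0.0433), Gad2 at 2.10 (adjusted p 0.00801) and Gabra6 at 8.50 (adjusted p 0.00213). Among all 60 genes called higher, 29 (48.3%) had only the naive AP20187 group outside the range of the 10 vehicle libraries, 17 (28.3%) only the DMM AP20187 group, 2 both and 12 neither. Over all genes tested these shares were 2.31%, 7.91%, 2.3% and 87.5%. Among the 100 called lower, 20 had only the naive group outside, 23 only the DMM group, 4 both and 53 neither. These classes describe where the difference lies, and no test was made of them.

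Myh6, Serpinc1, Ighg1 and Igkv6-23 were higher in DMM AP20187 ganglia. Among these higher genes, only for Myh6 did all DMM AP20187 libraries lie outside the vehicle range. Myh6 encodes the alpha heavy chain of cardiac myosin. Myh6 was at 3.05, 4.14, 4.24, 3.7 and 4.16 CPM in DMM AP20187 58 to 62 and at 0.674, 0.642, 0.857 and 0.567 CPM in naive AP20187 1, 3, 4 and 5. All 5 DMM libraries lay above every other library, the vehicle ones being at 0.707 to 1.7 CPM (log2 fold change 2.49, SE 0.29, adjusted p 0.000223). Its close relative Myh7, which shares much of its sequence, was lower in DMM instead (log2 fold change -1.78, edgeR adjusted p 0.0441). For Myh7 both AP20187 groups lay above all vehicle libraries. How reads shared by Myh6 and Myh7 were counted is not given in the sources used here. Serpinc1, antithrombin, had 156 counts in DMM and 0 in naive AP20187 libraries, at least 9.54-fold higher, with DMM AP20187 59 to 62 above the vehicle range of 0.0157 to 0.274 CPM and DMM AP20187 58 within it. Ighg1, an immunoglobulin heavy chain constant gene, was at 15.3, 0.409, 28.1, 17.1 and 19.9 CPM in DMM AP20187 58 to 62 and at most 0.538 CPM in naive AP20187 libraries. DMM AP20187 59 was low among the DMM libraries, and the groups overlapped. Igkv6-23, a light chain variable gene, had 776 counts in DMM and 3 in naive libraries, a ratio of 184.3 with a counting interval of 63.1 to 893.8. That interval covers counting error only and not the spread between libraries. For Igkv6-23, DMM AP20187 62 was low, within the vehicle range of 0 to 0.218 CPM. Members of these families share sequence, so the counts per gene are uncertain, and the B lineage list had 0 of 13 members called, against 0.702% of all genes. The calls of Ighg1 and Igkv6-23 were lost under 10 and 9 of 16 alternatives.

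Ccar1, Smc5, Tardbp, Luc7l3, Pnisr, Rsrp1 and Ttc14 were higher by smaller amounts. Ccar1, a transcription coactivator, was at 92.8 to 126 against 65.8 to 75.5 CPM, and Smc5, of the SMC5/6 DNA repair complex, at 52.7 to 69.8 against 38.9 to 42.8 CPM. Tardbp was at 201, 202, 196, 183 and 199 CPM in DMM AP20187 58 to 62 and at 156, 133, 139 and 124 CPM in naive AP20187 1, 3, 4 and 5. Tardbp encodes the RNA-binding protein TDP-43, and each DMM library was above every naive library (log2 fold change 0.51, SE 0.11, adjusted p 0.0441). Luc7l3, a splicing factor of the U1 particle, was at 141 to 208 against 91 to 113 CPM, Pnisr at 111 to 183 against 72.1 to 105 CPM, Rsrp1 at 362 to 479.8 against 216 to 285 CPM and Ttc14 at 83.9 to 163 against 55.1 to 67.3 CPM. These genes differed by less than 2-fold, and none passed in the fit of the 9 libraries alone. Of 16 alternatives, the call was lost under 11 for Tardbp, Luc7l3 and Pnisr, 10 for Smc5 and Rsrp1, and 6 for Ccar1 and Ttc14.

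Gpnmb, Lef1, Nfia, Pdk2, Coq10a and Slc6a8 were lower in DMM. Gpnmb, a lysosomal glycoprotein of macrophages and other phagocytes, was high in all 4 naive libraries. Gpnmb was at 28.1, 20.4, 18.9, 21.5 and 15.1 CPM in DMM AP20187 58 to 62 and at 99.1, 80.3, 72.7 and 78.8 CPM in naive AP20187 1, 3, 4 and 5. The groups did not overlap (log2 fold change -1.99, SE 0.34, adjusted p 0.00995), the vehicle libraries were at 5.81 to 25 CPM, and the macrophage list it is not part of had no called member. Lef1, a nuclear effector of Wnt signalling, was at 0.866 to 1.67 against 3.67 to 5.01 CPM (log2 fold change -1.82, SE 0.26, adjusted p 0.00213), and its DMM libraries lay below all vehicle libraries, at 1.94 to 4.99 CPM. Nfia, which guides glial development, was at 21.2 to 32.8 against 41.7 to 55.3 CPM. Pdk2, a brake on pyruvate dehydrogenase, was at 16.7 to 23.7 against 32.5 to 44.1 CPM, and Coq10a, of coenzyme Q function, at 8.59 to 12.5 against 18.2 to 23.6 CPM. Slc6a8, the creatine transporter, was at 18.5 to 26.6 against 39.6 to 43.5 CPM (log2 fold change -0.77, edgeR adjusted p 0.00515).

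Vegfb, Tlx2, Gfra4, Hoxb8, Hmga2, Ifi202b and Ccl24 were further genes lower in DMM. Vegfb was at 10.6, 10.5, 11.5, 13.9 and 11.3 CPM in DMM AP20187 58 to 62 and at 23, 23.5, 19.3 and 25.9 CPM in naive AP20187 1, 3, 4 and 5. Vegfb is a growth factor of the VEGF family, and its groups did not overlap (log2 fold change -0.99, SE 0.18, adjusted p 0.0169). Tlx2, a homeobox gene of autonomic and enteric neurons, was at 6.27 to 11.5 against 9.73 to 33.2 CPM and overlapped in naive AP20187 3. Gfra4, a GDNF family coreceptor, was at 3.17 to 6.01 against 6.91 to 11.6 CPM. Hoxb8 was the 1 of 19 tested Hox genes to pass as lower, against 0.439% of all genes, at 2.4 to 4.74 against 7.61 to 9.48 CPM (log2 fold change -1.22, SE 0.27, adjusted p 0.0468). Hoxb8 lost its call without any 1 of the 9 libraries and without TMM, and the calls of Tlx2, Gfra4, Hmga2, Ifi202b and Ccl24 were lost under 11 of 16, 11 of 16, 11 of 16, 10 of 16 and 12 of 15 alternatives. Hmga2, an embryonic chromatin protein, was at 0 to 0.366 against 2.43 to 5.45 CPM, and Ifi202b, an interferon-inducible gene, was at 0 to 0.0606 against 0.203 to 3.48 CPM. Ccl24, an eosinophil chemokine, had 0 counts in DMM AP20187 and 48 in naive AP20187 libraries, at least 4.45-fold lower, and was listed at 0 in naive AP20187 5 too.

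Some decreases were carried by naive AP20187 1, 3 and 4 alone. Rps29 was at 17.9, 15.4, 18.4, 13.1 and 16.1 CPM in DMM AP20187 58 to 62 and at 111, 138, 70.6 and 12.6 CPM in naive AP20187 1, 3, 4 and 5. Rps29 encodes a small ribosomal protein, and 3 naive libraries were high while naive AP20187 5 lay below all DMM libraries (log2 fold change -2.35, SE 0.46, adjusted p 0.0234). Atp5k was at 7.68, 6.93, 7.94, 7.44 and 7.52 CPM in DMM AP20187 58 to 62 and at 38.3, 60.05, 27.6 and 5.51 CPM in naive AP20187 1, 3, 4 and 5. Atp5k and Atp5mpl, small subunits of ATP synthase, and Rpl37, of the large ribosomal subunit, were also high in naive AP20187 1, 3 and 4, with naive AP20187 5 at 5.51, 35.2 and 22.4 CPM. Mt3, a brain metallothionein, was at 79.5, 71.6, 53.6 and 20.3 CPM in naive AP20187 1, 3, 4 and 5. Without naive AP20187 1, 3 and 4 the fold changes of Rps29, Rpl37, Atp5k and Atp5mpl changed sign, to 0.32, 0.47, 0.40 and 0.20. Their calls were lost, with the sign kept, under 7, 12, 8 and 11 of 16 alternatives. Rpl37 has a near-identical copy, Rpl37rt, and its count is uncertain, since how shared reads were counted is not given in the sources used here. Of the 20 ribosomal protein genes fixed as a list, 0 passed, against 0.702% of all genes, with a median of -0.08. Genes of at most 500 exon bases in all, with a mean of at least 1 CPM over the 9 AP20187 libraries (296 genes), had a median log2 fold change of -0.36. For such genes under 500 bases, the median log2 deviation from the mean of those 9 libraries was 0.53 and 0.63 in naive AP20187 1 and 3, -0.01 in 4 and -0.56 in 5. On the same scale the DMM AP20187 libraries were at -0.33 to 0.04 and the vehicle libraries at -1.28 to 0.

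**Figure D4:**
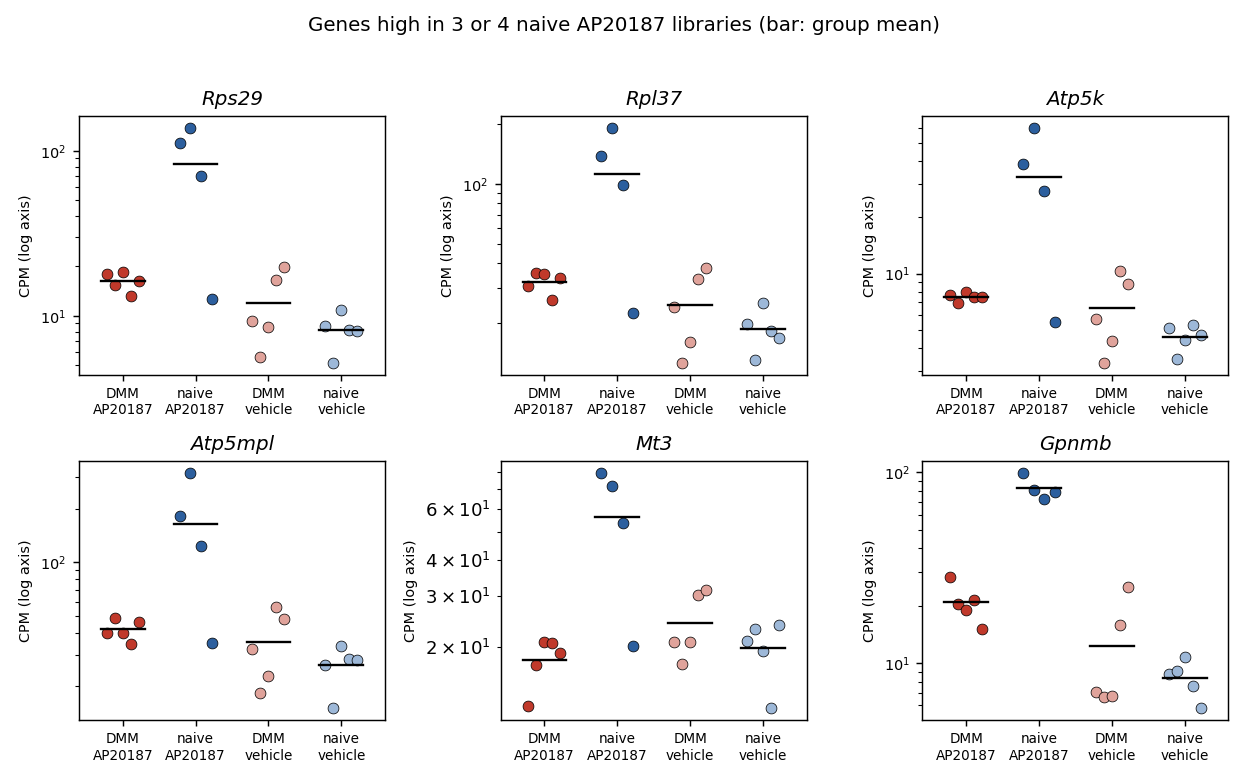
CPM on a log axis in each of the 19 libraries, with a bar at the group mean, for 5 genes high in naive AP20187 1, 3 and 4 only and for Gpnmb. In the first 5 panels 1 naive AP20187 point, library 5, lies among the other groups, and for Gpnmb all 4 are high.

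Of the lists of sensory neuron and pain signalling genes, that of proprioceptive and large-fibre neurons had 1 called member, Pvalb. None of the nociceptor (18 tested), pan-neuronal (14), sodium channel (14), potassium channel (22), neurotrophin (15) or neuropeptide (14) members was called. With 0.702% of all genes called, few or none would be called at that share. The medians were -0.62, -0.59, -0.99, -1.02, -0.77 and 0.15. All 14 pan-neuronal and 21 of the 22 potassium channel members had log2 fold changes below 0, as against 5 of the 14 neuropeptide members. Ret, the GDNF family signalling receptor, was at 31.4, 92.5, 85.8, 283 and 150.3 CPM in DMM and 289, 97.8, 484 and 551 CPM in naive libraries. Scn10a, the nociceptor sodium channel Nav1.8, was at 22.9, 176, 154, 417 and 189.7 CPM in DMM and 299.7, 96.9, 651 and 611 CPM in naive libraries (95% CI -2.46 to 0.24 for the log2 fold change). DMM AP20187 58 and naive AP20187 3 were the lowest of their groups for both genes and for Nefm, the medium neurofilament, at 188 and 419 CPM, and for the summed pan-neuronal markers, at 2294 and 3042 CPM. Piezo2, the touch channel, was at 21.1 to 189 against 66.5 to 320.4 CPM (95% CI -2.17 to 0.28). The peptide genes Calca and Tac1 had log2 fold changes of 0.48 (95% CI -0.15 to 1.12) and 0.21 (95% CI -0.42 to 0.85). The intervals leave room for changes of more than 2-fold in channel genes, so a missed threshold does not show equal levels.

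No member of the macrophage, monocyte, neutrophil, granulocyte precursor, inflammatory mediator or interferon lists passed, while Ccl24, Ifi202b, Ighg1 and Igkv6-23, described above and in none of these lists, did. Csf1r, the growth factor receptor of macrophages, was at 102, 104, 75.6, 32.8 and 30.6 CPM in DMM and 57.8, 86.8, 71.5 and 61.7 CPM in naive libraries (95% CI -1.03 to 1.01). DMM AP20187 61 and 62 were lower than the other DMM libraries. Adgre1 (F4/80) and Cd68, further macrophage genes, had log2 fold changes of 0.10 (95% CI -1.05 to 1.25) and -0.33 (95% CI -1.32 to 0.66). None of 18 macrophage, 13 mature neutrophil, 9 granulocyte precursor, 16 mitosis, 18 inflammatory mediator, 12 interferon or 16 axon injury genes was called, with medians of 0.13, 0.60, 0.96, 0.86, -0.42, -0.12 and -0.02. Over all genes 0.702% were called, so lists of this size would hold few or none at that share. All 9 granulocyte precursor genes and all 16 mitosis genes had fold changes above 0. Mpo, the granule enzyme of precursors, was at 1225, 729.9, 644, 581 and 1254 CPM in DMM and 834, 573, 165 and 245 CPM in naive libraries, and Mki67, of dividing cells, at 414 to 1037 against 183 to 541 CPM; both overlapped. Itgam (CD11b) had a log2 fold change of 0.96 (95% CI -0.13 to 2.05), Lcn2 of 0.19 (95% CI -1.07 to 1.45), Csf1 of 0.02 (95% CI -0.37 to 0.42) and Jun, an axon injury and immediate early gene, of -0.39 (95% CI -0.83 to 0.05).

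**Figure D5:**
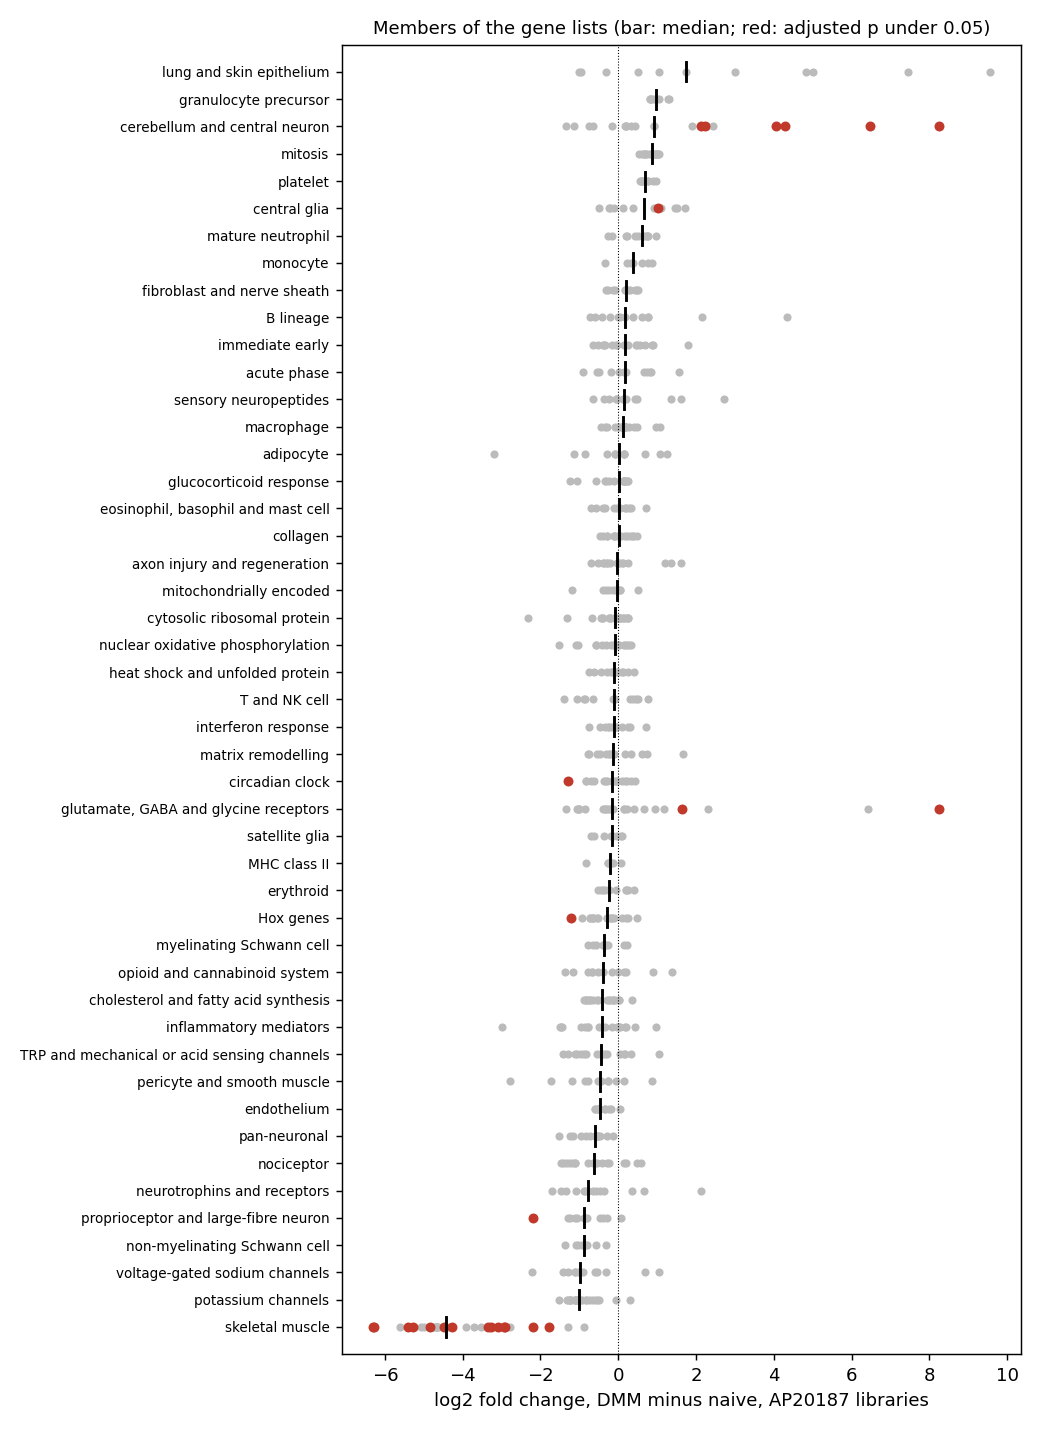
Log2 fold changes (x axis, DMM minus naive under AP20187) of the tested members of the 47 gene lists, with a black bar at each list's median and red points for adjusted p under 0.05. The skeletal muscle list lies farthest left, and red points occur in 7 lists.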

How the data were processed

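Poly(A) RNA libraries were stranded, per the labels' protocols. Cutadapt, HISAT2, StringTie and the build GRCm39 are named in the submitters' processing notes, while their settings and the program behind the counts are not given in the sources used here. Per the file headers, the deposited values are raw counts, whole numbers with no normalization, and FPKM (fragments scaled to exon length and library size), made by the authors,, for 36682 genes. Positions are those of the deposited tables.

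The 19 libraries were grouped by their labels. Genes were tested with edgeR 4.0.16 (R 4.3.3): TMM, filterByExpr (minimum count 10), 1 model of 4 groups over all libraries with 15 residual degrees of freedom, and the quasi-likelihood F test, two-sided, for DMM minus naive under AP20187, the same under vehicle, and the interaction. Adjusted p are Benjamini-Hochberg values over 22778 genes. CPM use TMM library sizes. Each library's floor was 3 counts, which covers counting error only. Fitted fold changes of genes at 0 in a group depend on the prior count. The members and the 47 lists were chosen with earlier results of these data known. Genes were named by rule: the 12 largest called changes per direction with a mean of at least 1 CPM in an AP20187 group and a regular symbol, the 8 of smallest p per direction at 10 CPM or more, up to 5 called members per list or its 2 most abundant, and Csf1r, Adgre1 and Cd68. Not all are printed, and some results are not reported here. Slc6a5, Cnpy1, Ppp1r17, Serpinc1, En2, Vgll2, Ccl24, Rps29, Rpl37, Atp5k, Atp5mpl, Mt3, Gpnmb, Tlx2, Gfra4, Lef1, Vegfb, Pnisr, Rsrp1 and Tardbp were named after their values were seen, as was Myh7. The smallest chi-square per degree of freedom between libraries of a group was 51.7, far beyond sampling noise. Alternatives used DESeq2 1.42.0, limma 3.58.1 (voom, and log2(FPKM + 1) for genes with a mean FPKM of at least 0.1), no TMM, no count filter, the 9 libraries alone, and leaving out each library. The model was tested on simulated data. Exon lengths came from GENCODE vM21, found for 97.34% of tested genes.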

Additional observations from a re-analysis of the deposited data

Results flagged for a closer look

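The DMM against naive difference under AP20187 itself differed from that under vehicle, by the edgeR interaction test, for 21 of the genes described. The log2 difference between the contrasts was positive for neuronal genes: 3.89 for Cbln3, 2.60 for Grin2c, 2.02 for Gad1, 2.10 for Gad2, 1.40 for Slc12a5, 8.50 for Gabra6, 8.47 for Slc6a5, 8.67 for Cnpy1 and 7.27 for Ppp1r17. It was also positive for Myh6 (2.71) and Serpinc1 (7.69). It was negative for the muscle-related genes Klhl31 (-11.06), Hrc (-7.28), Myl3 (-5.55), Hspb6 (-2.39), Tpm1 (-2.14), Tnnc1 (-3.08), Pvalb (-2.94) and Actn2 (-3.83), and for Gpnmb (-2.54) and Lef1 (-2.29). For Gabra6, Slc6a5, Cnpy1, Ppp1r17 and Serpinc1 the naive AP20187 group had 0 counts, so the size of the difference depends on the prior count.

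Single libraries lay far from the rest of their group by Dixon's test for 13 gene and group pairs, out of 75 genes examined in each of the 2 groups, where chance flags about 1 in 20. For Ifi202b and Klhl31 in DMM and Igkv6-23 and Neurod2 in naive libraries, the other libraries of the group had 0 counts, so any count at all stands apart and nothing is read from it. In DMM AP20187, library 62 was high for Ttn (7.44 CPM), Actn2 (3.45 CPM) and Ryr1 (4.33 CPM), library 61 was high for Jun (74.5 CPM), and libraries 60 and 58 were the only DMM libraries with counts of Klhl31 (0.0611 CPM) and of Ifi202b (0.0606 CPM). In naive AP20187, library 1 was high for Myl3 (8.54 CPM), Calca (949.9 CPM) and Tac1 (216 CPM), and library 3 for Slc12a5 (3.53 CPM) and Igkv6-23 (0.0507 CPM). Library 5 was high for Neurod2 (0.0648 CPM), and library 4 was low for Tpm1 (535 CPM).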

How the results depend on the processing

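All 160 called genes kept their sign with DESeq2, without TMM, without the count filter, with voom and when any 1 library was left out, as did the 155 and 148 of them tested in the fit of 9 libraries and on FPKM. The genes were picked from these same libraries, so a kept sign says little. Of the 160, 159 were still called with DESeq2, 155 with voom, 144 without TMM, 128 on FPKM, 73 without a count filter and 66 in the fit of 9 libraries. When 1 library was left out, 41 (without DMM AP20187 59) to 160 (without DMM vehicle 64) were still called. The number called, 160 (60 higher, 100 lower), became 1109 (628 and 481) with DESeq2, 73 (26 and 47) without a count filter, 2456 (768 and 1688) with voom and 1243 (1028 and 215) on FPKM. Without TMM 138 were higher, and in the fit of 9 libraries 15 were. Leaving out each AP20187 library gave 43 to 269 called, 21 to 96 higher and 22 to 173 lower. The 26 interaction genes became 224 with DESeq2, 13 without a filter, 53 with voom and 53 on FPKM, and 12 (without DMM AP20187 60) to 57 (without naive AP20187 5) when any 1 of 19 libraries was left out.

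An alternative chosen after seeing the data left out naive AP20187 1, 3 and 4 together, so that 1 naive library was assumed to vary like the other groups. It called 2 genes, 0 higher and 2 lower, and 0 interactions. Of the 160 genes, 153 kept their sign, and Rps29 (0.32), Rpl37 (0.47), Atp5k (0.40) and Atp5mpl (0.20) were among those that changed it. The cause of these shifts was not tested, beyond the fewer libraries. No paired analysis was possible because the compared groups share no replicate numbers.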
